A study of Mus musculus with 9 samples.

Results

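The FoxO transcription factors and the ubiquitin ligases that act with them in striated muscle were compared between the quadriceps and the heart of sham-operated mice. The set holds 10 genes that were chosen by name: the 4 FoxO factors Foxo1, Foxo3, Foxo4 and Foxo6, the F-box proteins Fbxo32 and Fbxo30, the muscle RING-finger (MuRF) proteins Trim63, Trim54 and Trim55, and the mitochondrial ligase Mul1. They are 10 of the 24537 gene names, and 11 of the 35745 RefSeq transcripts, in the deposited table of the sham tissues. Each of the 10 passed the filter on low counts, as did 14906 genes in all. RNA sequencing covered 3 sham heart libraries and 3 sham quadriceps libraries from C57Bl6 mice (male C57Bl/6JCrl mice by the study's methods) that were 8 weeks old at the sham operation, or 8 to 10 weeks by those methods, and were studied 12 weeks later, so that strain, age and operation were shared and the tissue was what differed. No transgene or drug was given to either group. The series also holds 3 quadriceps libraries taken after transverse aortic constriction, which were not analysed here. The extraction protocol in the labels names only the quadriceps, and whether hearts and muscles were prepared together, or came from the same mice, is not given in the sources used here.

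FoxO factors are forkhead proteins, of which Foxo1, Foxo3 and Foxo4 enter the nucleus when insulin and insulin-like growth factor signaling is low. Phosphorylation by Akt and SGK kinases otherwise holds them in the cytoplasm. In muscle, FoxO factors switch on genes of protein breakdown, among them Fbxo32, which encodes atrogin-1 (also called MAFbx), and Trim63, which encodes MuRF1. A ubiquitin ligase marks a protein for the proteasome by attaching ubiquitin: the F-box proteins do so as the substrate-binding part of an SCF complex built on the cullin Cul1, and the MuRF proteins through their own RING domain while bound to the sarcomere. The study used Fbxo32, Trim63 and Foxo1 as markers of muscle wasting, and the levels given here describe the same system in muscle and heart of animals without pressure overload.

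Levels are given as TMM-scaled RPKM, that is reads per kilobase of transcript and per library size, with library sizes scaled by TMM, a method that sets the bulk of genes to equal levels between libraries. The total counts ranged from 23383452 to 38382751 per library. The 50 most abundant transcripts took 28.1% to 29.1% of the counts in heart and 44.6% to 51.3% in quadriceps, and the scaling therefore mattered: the median log2 fold change of all tested genes, quadriceps against heart, was -0.05 with TMM and -0.80 with plain library totals. Tissue labels held in every library. All 8 heart muscle markers were lower and all 10 fast skeletal muscle markers higher in quadriceps, and the summed level of the heart markers was 16334 to 17406 in heart and 66.8 to 179 in quadriceps, while that of the fast muscle markers was 817 to 939 and 55340 to 74053. The sums hide a spread of single markers among the heart libraries. Myl7 was at 75.0, 5.61 and 0.120 in heart and at most 0.0633 in quadriceps, and Nppa was at 534, 465 and 218 in heart. The source of this spread was not tested.

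Of the 10 genes, 5 were higher in quadriceps (Foxo4, Fbxo32, Foxo6, Trim63 and Trim54) and 2 were lower (Foxo3 and Mul1) at an adjusted p under 0.05 (edgeR quasi-likelihood test, adjusted over all 24280 tested transcripts), and 3 did not pass (Foxo1, Trim55 and Fbxo30). Over all tested genes, 32.1% were called higher and 33.9% lower, so being called was common in this comparison of tissues and the count alone sets the 10 genes apart from nothing. With library totals the split was 3 higher and 5 lower, where 13.6% and 62.0% of all genes were called: Trim63 and Trim54 no longer passed, and Foxo1, Trim55 and Fbxo30 were then lower. The levels of the 3 heart and the 3 quadriceps libraries did not overlap for 8 of the 10 genes, against 71.7% of all tested genes. The study's criterion for genes higher in quadriceps, an unadjusted p under 0.05 and a log2 fold change above 2, was met by 0 of the 10 and by 7.14% of all genes. Its mirror image, a log2 fold change under -2, which the study did not use, was met by Foxo3 alone and by 9.04% of all genes. In bulk tissue, fewer cells of a type and less RNA per cell cannot be told apart.

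**Figure D1:**
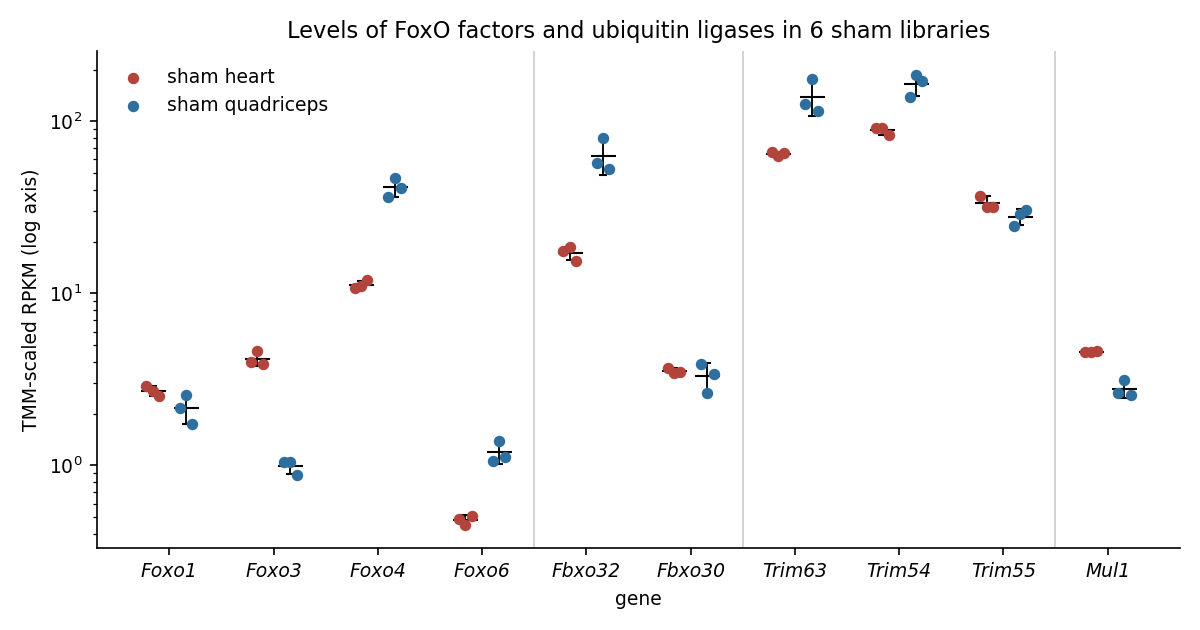
TMM-scaled RPKM (log axis) of the 10 genes in each of the 3 sham heart (red) and 3 sham quadriceps (blue) libraries, with black bars for the mean ± SD. Foxo4 and Fbxo32 lie higher and Foxo3 lower in every quadriceps library, while the values of Foxo1 and Fbxo30 overlap between the tissues.

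Among the FoxO factors, Foxo4 was the most abundant in both tissues and also rose most in quadriceps. Foxo4 is an X-linked gene on the plus strand (chromosome X, 101254528 to 101260873, build GRCm38, as are the positions that follow) with no other annotated gene across it. Heart levels of Foxo4 were 10.7, 11.0 and 11.9, and quadriceps levels 36.2, 46.6 and 41.2. Every quadriceps value lay above every heart value, and both lay above 4.60, the highest level that another FoxO gene reached in any library. The means were 11.2 ± 0.600 in heart and 41.3 ± 5.19 in quadriceps (SD, n = 3 each), a log2 fold change of 1.88 (standard error 0.12, edgeR quasi-likelihood test, adjusted p = 9.39e-07) or 3.69-fold higher in quadriceps. Among all tested genes this fold change stood at the percentile 92.4, and the level itself at 95.0 in quadriceps and 85.5 in heart.

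Foxo3 went the other way, with the largest difference of the 10 genes. This factor, on chromosome 10 from 42181841 to 42276755 on the minus strand, is known for driving autophagy and Fbxo32 transcription in atrophying fibers. Foxo3 was counted 548, 667 and 483 times in heart and 82, 72 and 45 times in quadriceps. As levels, these were 3.99, 4.60 and 3.90 in heart and 1.05, 1.04 and 0.882 in quadriceps, with no overlap. The means were 4.16 ± 0.379 and 0.991 ± 0.0940 (SD, n = 3 each), and the log2 fold change was -2.06 (standard error 0.13, edgeR quasi-likelihood test, adjusted p = 9.80e-07), or 4.17-fold higher in heart. Foxo3 was at the percentile 66.4 of levels in heart and 36.7 in quadriceps.

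Foxo1, the FoxO gene that the study followed as an atrophy marker, differed little. It lies on chromosome 3 from 52268336 to 52353221 on the plus strand and overlaps Gm38034 on the same strand and Gm20402 on the opposite one, and whether the counting used strand is not given in the sources used here. The levels of Foxo1 were 2.90, 2.70 and 2.54 in heart and 2.16, 2.58 and 1.73 in quadriceps, so that the second quadriceps library lay above the lowest heart library. The log2 fold change of Foxo1 was -0.33 (standard error 0.14, edgeR quasi-likelihood test, adjusted p = 0.0688), which did not pass. It was -0.47 without quadriceps library 2, and -1.08 with library totals, and passed in both (edgeR quasi-likelihood test, adjusted p = 0.00964 and 0.000189).

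Foxo6, a FoxO factor best known from the brain, was the least abundant of the 10 genes in heart. It lies on chromosome 4 from 120267079 to 120287349 on the minus strand. Its counts were 59, 57 and 55 in heart and 73, 84 and 50 in quadriceps, and its levels 0.491, 0.449 and 0.507 against 1.06, 1.39 and 1.12, without overlap, which gave a log2 fold change of 1.30 (standard error 0.18, edgeR quasi-likelihood test, adjusted p = 0.000158), or 2.47-fold higher in quadriceps, and with library totals 0.55 (edgeR quasi-likelihood test, adjusted p = 0.0140).

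The composition of the FoxO family does not depend on how libraries are scaled, since each share is taken within one library. Foxo4 made up 59.3%, 58.7% and 63.1% of the summed FoxO RPKM in heart and 89.4%, 90.3% and 91.7% in quadriceps. Foxo3 held 22.0%, 24.5% and 20.7% in heart and 2.58%, 2.02% and 1.96% in quadriceps. Foxo1 held 13.5% to 16.0% in heart and 3.85% to 5.34% in quadriceps. Foxo1 and Foxo3 together thus came after Foxo4 in every library, with a large part of the family in heart and a small remainder in quadriceps. The differences of the mean shares were 30.1 percentage points for Foxo4, -20.2 for Foxo3 and -9.90 for Foxo1, and the groups did not overlap in any of the 3 (exact two-sided permutation test, p = 0.1 each, which is the smallest that 3 against 3 libraries allow; adjusted p = 0.16 over the 8 shares compared). Foxo6 held 2.60% ± 0.178 in heart and 2.61% ± 0.105 in quadriceps (SD, n = 3 each; exact two-sided permutation test, p = 0.9). The summed FoxO RPKM as deposited, which is scaled by library totals, was 23.3 to 24.6 in heart and 33.7 to 37.4 in quadriceps.

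**Figure D2:**
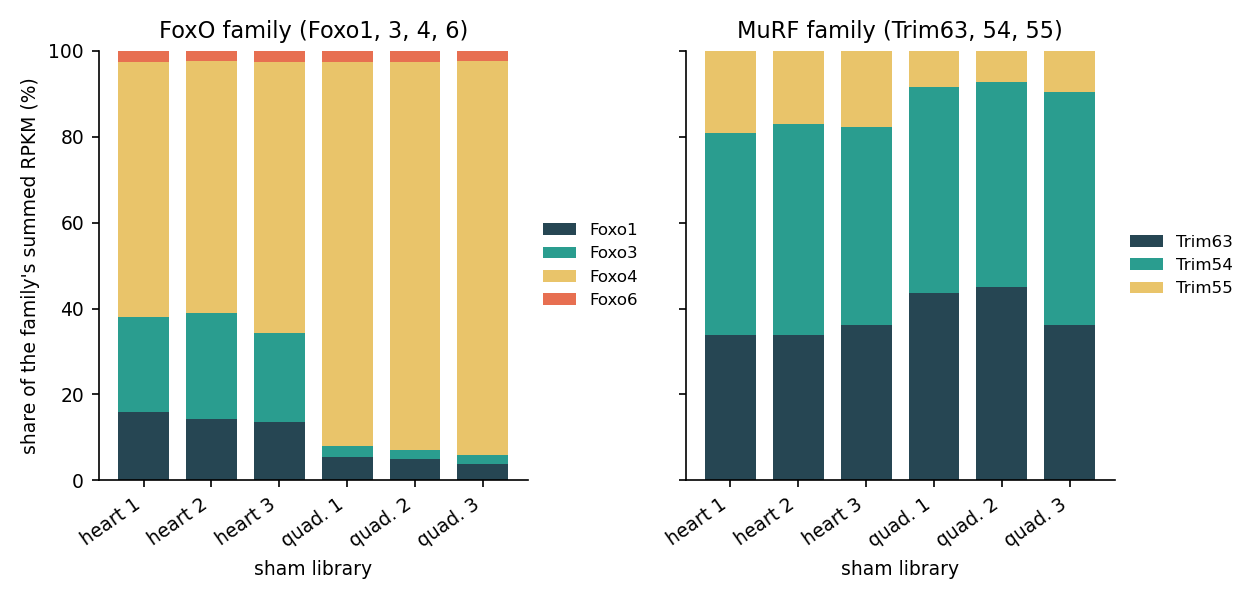
Share (%) of each gene in the summed RPKM of its family, for every sham library (quad., quadriceps), with FoxO genes on the left and MuRF genes on the right. The Foxo4 segment grows from 58.7% to 63.1% in heart to 89.4% to 91.7% in quadriceps, and the Trim55 segment shrinks from 17.1% to 19.1% to 7.38% to 9.60%.

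Markers of other cell types also differed between the tissues, where 32.1% of all tested genes were called higher and 33.9% lower in quadriceps. All 6 endothelial markers were lower in quadriceps, with a summed level of 116 to 129 in heart and 36.2 to 43.1 in quadriceps, as were 4 of 5 macrophage and leukocyte markers (9.18 to 10.1 against 3.54 to 8.42), 3 of 5 fibroblast markers (203 to 222 against 153 to 213) and 4 of 4 red blood cell markers (417 to 505 against 123 to 150). Most of the fibroblast sum was Dcn, which did not pass (means of 168 in heart and 148 in quadriceps). Hba-a1 and Hba-a2 had identical counts in every library, so the same counts enter the red blood cell sum under both names. Higher in quadriceps were 4 of 5 adipocyte markers (368 to 480 against 291 to 674) and 2 of 4 nerve markers (1.32 to 2.13 against 12.3 to 13.5). Nearly all of the adipocyte sum was Fabp4, the marker that did not pass (means of 432 in heart and 409 in quadriceps). This sum therefore does not show the rise of the other adipocyte markers. Adipoq, an adipocyte hormone, was at 35.4, 14.5 and 4.33 in the quadriceps libraries and at most 0.445 in heart. Of 4 smooth muscle markers, 1 was higher and 1 lower (31.1 to 39.6 against 24.2 to 30.2). Of 5 slow fiber markers, 2 were higher, Tnni1 (log2 fold change 7.66) and Tnnt1 (3.51). The 3 lower ones, Myh7 (-2.03), Tnnc1 (-4.61) and Myl3 (-4.41), are also genes of heart muscle, at mean heart levels of 191, 1636 and 3364. The summed level of the 5 (5172 to 5226 against 419 to 500) therefore does not measure slow fibers in this comparison. None of these markers was at 0 counts in every library, and the part of other cell types in the results for Foxo3, Foxo1 and Mul1 was not tested.

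Fbxo32 rose in quadriceps by nearly the same factor as Foxo4. The gene encodes atrogin-1, which binds its substrates for the SCF complex, and lies on chromosome 15 from 58175879 to 58214932 on the minus strand, where it overlaps Gm15943 on the opposite strand. Its levels were 17.6, 18.6 and 15.5 in heart and 57.2, 79.7 and 52.8 in quadriceps. The lowest quadriceps value was thus well above the highest heart value, and library 2 stood above the other two muscle libraries. The means were 17.2 ± 1.61 and 63.3 ± 14.4 (SD, n = 3 each), the log2 fold change 1.88 (standard error 0.17, edgeR quasi-likelihood test, adjusted p = 9.54e-06), or 3.67-fold higher in quadriceps, and 1.12 with library totals (edgeR quasi-likelihood test, adjusted p = 0.000224). The gene was at the percentile 90.7 of levels in heart and 96.8 in quadriceps.

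Fbxo30, the F-box protein also called MUSA1 that is known from denervated muscle, did not follow Fbxo32. It lies on chromosome 10 from 11281330 to 11298052 on the plus strand and was counted on 2 transcripts of nearly equal counts (870 and 850 in the first heart library), which share most of their reads. The levels of Fbxo30 were 3.67, 3.44 and 3.51 in heart and 3.90, 2.64 and 3.40 in quadriceps, and the muscle values spanned the heart values. Its log2 fold change was -0.09 (standard error 0.14, edgeR quasi-likelihood test, adjusted p = 0.569), turned to 0.05 without quadriceps library 2 (edgeR quasi-likelihood test, adjusted p = 0.661), and was -0.83 with library totals (adjusted p = 0.00273). Fbxo32 made up 82.7%, 84.4% and 81.5% of the summed RPKM of both F-box genes in heart and 93.6%, 96.8% and 94.0% in quadriceps, without overlap (exact two-sided permutation test, p = 0.1, the smallest possible here; adjusted p = 0.16 over the 8 shares).

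The MuRF genes were the 3 most abundant of the set in heart, and Trim54 and Trim63 the most abundant in quadriceps. The MuRF genes encode closely related RING-finger proteins of the sarcomere, of which MuRF1 (Trim63) is known for the breakdown of thick filament proteins, MuRF2 (Trim55) for binding near the kinase domain of titin and MuRF3 (Trim54) for binding microtubules. Trim63 lies on chromosome 4 from 134315120 to 134329629 on the plus strand. Its levels were 65.9, 63.3 and 65.4 in heart and 126, 175 and 115 in quadriceps, which gave a tight heart group and a wider muscle group above it. The means were 64.9 ± 1.42 and 139 ± 31.8 (SD, n = 3 each), and the log2 fold change was 1.10 (standard error 0.16, edgeR quasi-likelihood test, adjusted p = 0.000200), or 2.14-fold higher in quadriceps. With library totals it was 0.34 and did not pass (edgeR quasi-likelihood test, adjusted p = 0.0526).

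Trim54 was the highest of the 10 genes in both tissues. It lies on chromosome 5 from 31116712 to 31137630 on the plus strand and overlaps Gm15469 on the opposite strand. The levels of Trim54 were 91.3, 91.4 and 83.1 in heart and 138, 186 and 173 in quadriceps, again without overlap, at a log2 fold change of 0.90 (standard error 0.13, edgeR quasi-likelihood test, adjusted p = 0.000213), or 1.87-fold higher in quadriceps, and 0.14 with library totals (edgeR quasi-likelihood test, adjusted p = 0.231), so that the direction held but the call rested on the scaling. Trim54 was at the percentile 98.4 of levels in heart and 98.9 in quadriceps, and Trim63 at 97.9 and 98.6.

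Trim55 did not share the rise of the other two MuRF genes. It lies on chromosome 3 from 19644474 to 19692421 on the plus strand, where it overlaps BC002189 on the same strand. Its levels were 37.0, 32.0 and 31.8 in heart and 24.5, 28.8 and 30.6 in quadriceps, each muscle library below each heart library but by a narrow gap. The log2 fold change was -0.27 (standard error 0.12, edgeR quasi-likelihood test, adjusted p = 0.0678), and -1.02 with library totals (edgeR quasi-likelihood test, adjusted p = 3.44e-05). Within the MuRF family, Trim55 held 19.1%, 17.1% and 17.7% of the summed RPKM in heart and 8.50%, 7.38% and 9.60% in quadriceps, a difference of the means of -9.46 percentage points with no overlap (exact two-sided permutation test, p = 0.1, the smallest possible here; adjusted p = 0.16 over the 8 shares). The shares of Trim63 (34.7% ± 1.36 and 41.6% ± 4.69) and Trim54 (47.3% ± 1.49 and 49.9% ± 3.69; SD, n = 3 each, heart first) overlapped between the tissues (exact two-sided permutation test, p = 0.2 and 0.4). The deposited RPKM of the family summed to 234 to 250 in heart and 241 to 283 in quadriceps.

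Promoter sequences of 6 of the 10 genes were read from RefSeq (GRCm38.p6). None was available for Trim55, nor for Foxo4, Foxo6 and Fbxo32, which were higher in quadriceps. Each sequence covers 250 bases before and 50 bases from the start that RefSeq annotates, written 5′ to 3′ on the gene's strand. That start is the one given above for Trim63, lies upstream of it for Trim54, whose window ends before the start given above, and lies inside the gene for Foxo3 and Fbxo30. Shown are those of Trim63 (chr4:134314870-134315169, plus strand) and Trim54 (chr5:31116362-31116661, plus strand), which were higher in quadriceps, and of Foxo3 (chr10:42276646-42276945, minus strand), which was lower. Capitals mark matches to any of 6 motifs searched on both strands. These were the FoxO core TGTTTAC, its extended form TTGTTTAC, which overlaps it, and the glucocorticoid receptor palindrome of the half-sites GAACA and TGTTC with 3 bases between them. The others were the E-box CAGCTG of myogenic factors, TATAAA, and a loose MEF2 motif of CTA and TAG with any 4 bases between them. The motifs were chosen after the sequences had been seen.
Trim63: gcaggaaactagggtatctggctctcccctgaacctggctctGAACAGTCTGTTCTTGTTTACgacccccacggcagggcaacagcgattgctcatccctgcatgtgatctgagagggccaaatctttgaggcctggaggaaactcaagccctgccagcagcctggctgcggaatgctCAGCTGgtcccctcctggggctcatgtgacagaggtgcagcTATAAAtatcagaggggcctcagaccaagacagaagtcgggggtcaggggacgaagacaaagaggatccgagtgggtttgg
Trim54: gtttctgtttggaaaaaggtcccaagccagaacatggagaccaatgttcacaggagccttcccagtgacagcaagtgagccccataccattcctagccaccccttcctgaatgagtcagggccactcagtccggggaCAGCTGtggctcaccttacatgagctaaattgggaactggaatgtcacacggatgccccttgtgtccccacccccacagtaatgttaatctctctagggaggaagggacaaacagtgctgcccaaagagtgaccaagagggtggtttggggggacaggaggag
Foxo3: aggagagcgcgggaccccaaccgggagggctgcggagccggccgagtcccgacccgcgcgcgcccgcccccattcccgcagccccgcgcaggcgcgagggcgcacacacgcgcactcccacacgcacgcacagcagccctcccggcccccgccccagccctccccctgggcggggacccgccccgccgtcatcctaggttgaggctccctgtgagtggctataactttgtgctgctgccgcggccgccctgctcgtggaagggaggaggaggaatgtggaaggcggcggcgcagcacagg
The Trim63 promoter held matches to 5 of the 6 motifs. Its palindrome, at bases 43 to 55, was followed directly by the extended FoxO motif at bases 56 to 63, and further down stood an E-box at bases 179 to 184 and the TATAAA match at bases 220 to 225, which begins 31 bases before the start. Among 32851 promoters of the same length, 3.65% held the FoxO core, 1.23% its extended form, 0.0578% the palindrome, 16.3% the E-box, 13.6% TATAAA and 3.69% the loose MEF2 motif. Trim54 held the E-box alone, at bases 138 to 143. The promoters of Foxo3, Foxo1, Fbxo30 and Mul1 held none of the 6 motifs in this window. They also differed in base composition: the ratio of observed to expected CpG dinucleotides was 0.29 for Trim63 and 0.09 for Trim54, and 0.83 for Foxo3, 0.99 for Mul1, 1.08 for Fbxo30 and 1.10 for Foxo1, with a median of 0.38 over all promoters. A match to letters is a description of the sequence only.

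Mul1, a RING ligase of the outer mitochondrial membrane that ubiquitinates the fusion protein Mfn2, was lower in quadriceps. It lies on chromosome 4 from 138434671 to 138442265 on the plus strand. Its levels were 4.55, 4.57 and 4.64 in heart and 2.62, 3.13 and 2.58 in quadriceps, with the narrowest heart group of the 10 genes relative to its mean. The means were 4.59 ± 0.0444 and 2.78 ± 0.306 (SD, n = 3 each), and the log2 fold change was -0.72 (standard error 0.11, edgeR quasi-likelihood test, adjusted p = 0.000270), or 1.65-fold higher in heart. It was -1.48 with library totals (edgeR quasi-likelihood test, adjusted p = 3.49e-06).

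**Figure D3:**
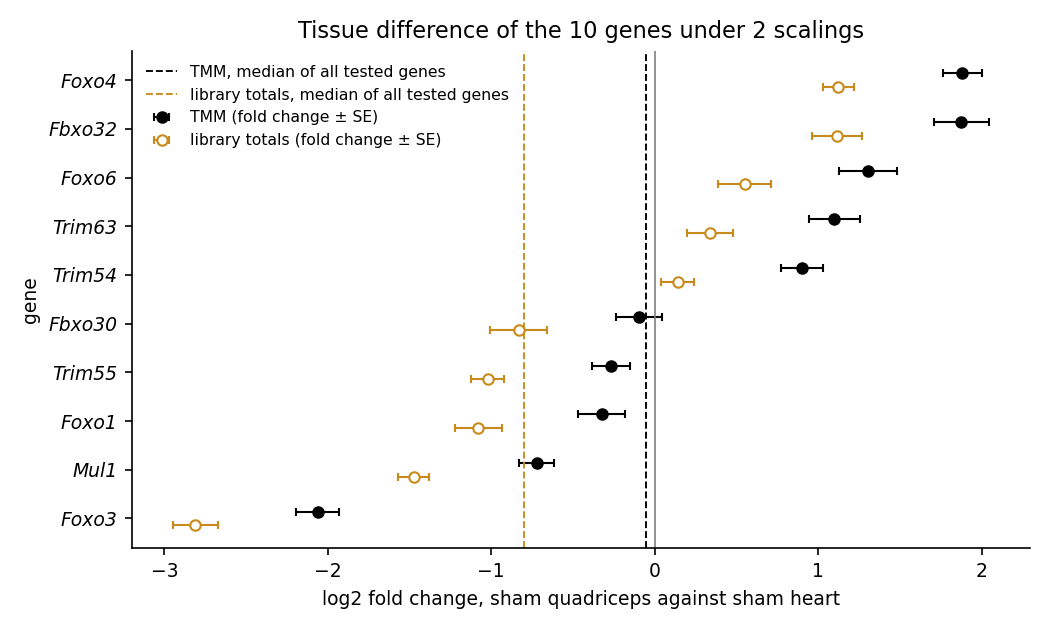
Log2 fold change (± SE) of the 10 genes, sham quadriceps against sham heart, with TMM (black) and with library totals (open), and the median of all tested genes under each scaling (dashed, -0.05 and -0.80). The change of scaling moves all genes to the left together, which takes Trim54 from 0.90 to 0.14 and leaves Foxo4 and Fbxo32 above 1.

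By level per length, the order in heart was Trim54, Trim63, Trim55, Fbxo32, Foxo4, Mul1, Foxo3, Fbxo30, Foxo1 and Foxo6. The values of neighbors in this order did not overlap over the 3 libraries, except those of Mul1 and Foxo3. In quadriceps it was Trim54, Trim63, Fbxo32, Foxo4, Trim55, Fbxo30, Mul1, Foxo1, Foxo6 and Foxo3, where Trim54 overlapped Trim63 and Fbxo30 overlapped Mul1. Foxo3 thus stood seventh in heart and last in quadriceps, and Trim55 went from the third to the fifth place.

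The ratio of Trim63 to Fbxo32, the 2 ligases commonly read together as atrophy markers, was taken within each library. On the log2 scale it was 1.91, 1.76 and 2.08 in heart and 1.14, 1.14 and 1.13 in quadriceps, or a mean ratio of 3.78 against 2.19. The quadriceps ratios lay within an SD of 0.00543 on the log2 scale, against 0.158 in heart, although the level of Trim63 itself ran from 115 to 175 across the muscle libraries. The difference of the means was -0.78 (exact two-sided permutation test, p = 0.1, the smallest possible here; adjusted p = 0.117 over the 7 ratios compared), with no overlap between the tissues. Against the summed FoxO RPKM, Fbxo32 was higher in quadriceps (a difference of 0.57 on the log2 scale), while Mul1 (-2.02), Trim55 (-1.56), Fbxo30 (-1.40) and Trim54 (-0.40) were lower, each without overlap and with the same p. The ratio of Trim63 to summed FoxO was 1.80 ± 0.0558 in heart and 1.59 ± 0.206 in quadriceps on the log2 scale (SD, n = 3 each), and overlapped between the tissues (exact two-sided permutation test, p = 0.2).

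**Figure D4:**
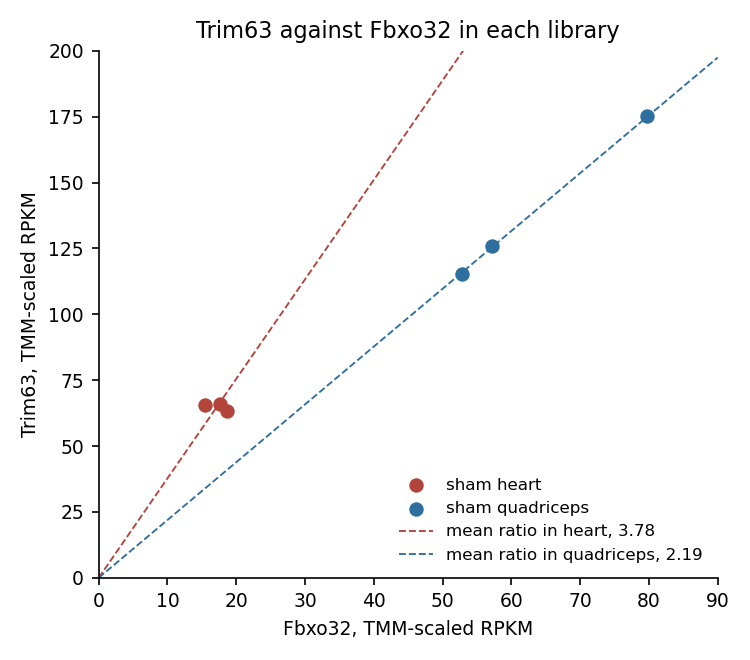
TMM-scaled RPKM of Trim63 against that of Fbxo32 in the 3 sham heart (red) and 3 sham quadriceps (blue) libraries, with dashed lines for the mean ratio in each tissue. The quadriceps points lie along a ratio of 2.19 over their whole range, and the heart points lie around a ratio of 3.78.

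The genes that feed into FoxO control were taken from lists of gene names, and their counts stand beside a background of 32.1% of all genes higher and 33.9% lower with TMM, and 13.6% and 62.0% with library totals. Of 16 genes of IGF1, insulin and PI3K-Akt signaling, 6 were higher and 9 lower in quadriceps, and Irs2 did not pass (log2 fold change 0.69, edgeR quasi-likelihood test, adjusted p = 0.0733). The median log2 fold change of the list was -0.34, against -0.05 over all tested genes. Sgk1, a kinase that phosphorylates FoxO factors, was at 4.88 ± 0.378 in heart and 46.4 ± 7.99 in quadriceps (SD, n = 3 each), a log2 fold change of 3.25 (standard error 0.15, edgeR quasi-likelihood test, adjusted p = 9.90e-08). Akt2, the kinase form best known from insulin signaling, was higher in quadriceps at a log2 fold change of 0.76 (0.00 with library totals, adjusted p = 0.971), whereas Akt1 was lower (-1.97). Igf1, the growth factor, was higher (1.56), and Pik3r1, the regulatory subunit of PI3-kinase, was lower (-1.50). With library totals, 2 of the 16 were higher and 10 lower.

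Myostatin and activin signaling restrains muscle growth through Smad2 and Smad3, and 9 of its 13 genes were higher and 2 lower in quadriceps, where 32.1% and 33.9% of all genes were. The median log2 fold change of the list was 1.27. With library totals 8 were higher and 5 lower, where 13.6% and 62.0% of all genes were. Mstn, which encodes myostatin, was counted 9, 9 and 5 times in heart and 1965, 2430 and 1336 times in quadriceps (log2 fold change 8.96, standard error 0.23, edgeR quasi-likelihood test, adjusted p = 4.03e-09). The related ligand Gdf11 (2.85) and Smad3 (2.62) were higher too. Inhbb, an activin subunit (-1.41), and the inhibitory Smad7 (-1.38) were lower, and Smad4, the common partner, was at 0.27, which turned to -0.49 with library totals.

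Of 15 enzymes and cofactors that modify FoxO proteins, 8 were higher, 1 was lower and 6 did not pass, where 32.1% of all genes were higher and 33.9% lower. The median log2 fold change of the list was 0.33. The AMP-activated kinase subunit Prkaa2 (1.25), the stress kinase Mapk14 (1.23) and the ubiquitin ligase Mdm2 (0.87) led the rise. With library totals Mdm2 was at 0.12 and did not pass. The coactivator Ppargc1a was the lower gene (-0.63, edgeR quasi-likelihood test, adjusted p = 0.00151), counted here on a transcript that RefSeq lists as non-coding. At the low end of the called genes, Prkaa1 (0.41) and the glucocorticoid receptor Nr3c1 (0.33) were higher with TMM and lower with library totals (-0.33 and -0.41). With library totals 2 of the 15 were higher and 9 lower, where 13.6% and 62.0% of all genes were.

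The 22 FoxO target genes other than the ligases included 14 higher, 5 lower and 3 that did not pass, where 32.1% of all genes were higher and 33.9% lower, with a median log2 fold change of 0.66. DESeq2 called 13 higher and 4 lower. Pdk4, 1 of the 14, was at 226, 74.6 and 44.8 in quadriceps and 37.6 to 48.3 in heart. It did not pass with DESeq2 (adjusted p = 0.0616). The mitophagy receptor Bnip3 was at 5.73 ± 0.158 in heart and 20.4 ± 0.752 in quadriceps (SD, n = 3 each; log2 fold change 1.83, edgeR quasi-likelihood test, adjusted p = 2.51e-07), and the repressor Bcl6 (1.76) and the stress gene Gadd45a (1.55) were higher as well. The sestrins Sesn1 (-1.67) and Sesn3 (-0.69), which restrain mTOR, and the mitochondrial superoxide dismutase Sod2 (-0.66) were lower. Sesn3 overlapped between the tissues (0.792 to 1.44 in heart, 0.545 to 0.843 in quadriceps) and did not pass with DESeq2 (adjusted p = 0.0540). With library totals 4 of the 22 were higher and 10 lower, where 13.6% and 62.0% of all genes were.

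Around the ligases themselves, 4 of 8 SCF and neddylation genes were higher and 2 lower, where 32.1% and 33.9% of all genes were. The median log2 fold change of this list was 0.54. With library totals 2 were higher and 3 lower, where 13.6% and 62.0% of all genes were. The RING subunit Rbx1 (1.50), the adaptor Skp1a (1.11) and Nedd8 (0.91, or 0.16 with library totals), the modifier that activates cullins, were higher. So was Cul1 (0.70, or -0.04 with library totals). Neither Nedd8 nor Cul1 passed with library totals. Cand1 (-1.13), which exchanges F-box proteins on Cul1, and the NEDD8-conjugating enzyme Ube2m (-0.44) were lower. Of 20 other ligases, conjugating enzymes and related genes of striated muscle, 10 were higher and 3 lower (8 and 10 with library totals), beside the same shares of all genes. The median of this list was 0.35. Klhl41 (3.30) and Klhl40 (3.25), kelch proteins of the sarcomere, and the RING ligase Rnf115 (2.52) were highest, and Trim72 (-1.15), Fbxo21 (-0.93) and Huwe1 (-0.42) were lower.

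Among 14 substrates and sarcomeric partners of the ligases, 7 were higher and 4 lower, where 32.1% and 33.9% of all genes were. The median log2 fold change of the list was 0.44. With library totals 6 were higher and 7 lower, where 13.6% and 62.0% of all genes were. Several of the 14 are themselves isoforms of one tissue, such as the fast light chain Mylpf (15.2) and Ckm, the muscle creatine kinase (4.14), in quadriceps, and the cardiac troponin Tnni3 (-13.0) in heart. Myod1, a myogenic factor and substrate of atrogin-1, was counted 0, 2 and 0 times in heart and 180, 305 and 209 times in quadriceps, so that no fold is given. Vim (-1.24), an intermediate filament gene of non-muscle cells, and Mfn2 (-0.74), the substrate of Mul1, were lower in quadriceps. Of 5 other mitochondrial ubiquitin genes, 2 were higher, March5 (0.93) and Pink1 (0.71), and 0 were lower, with a median of -0.08. With library totals 0 of these were higher and 3 lower, and the shares of all genes are those given above.

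**Figure D5:**
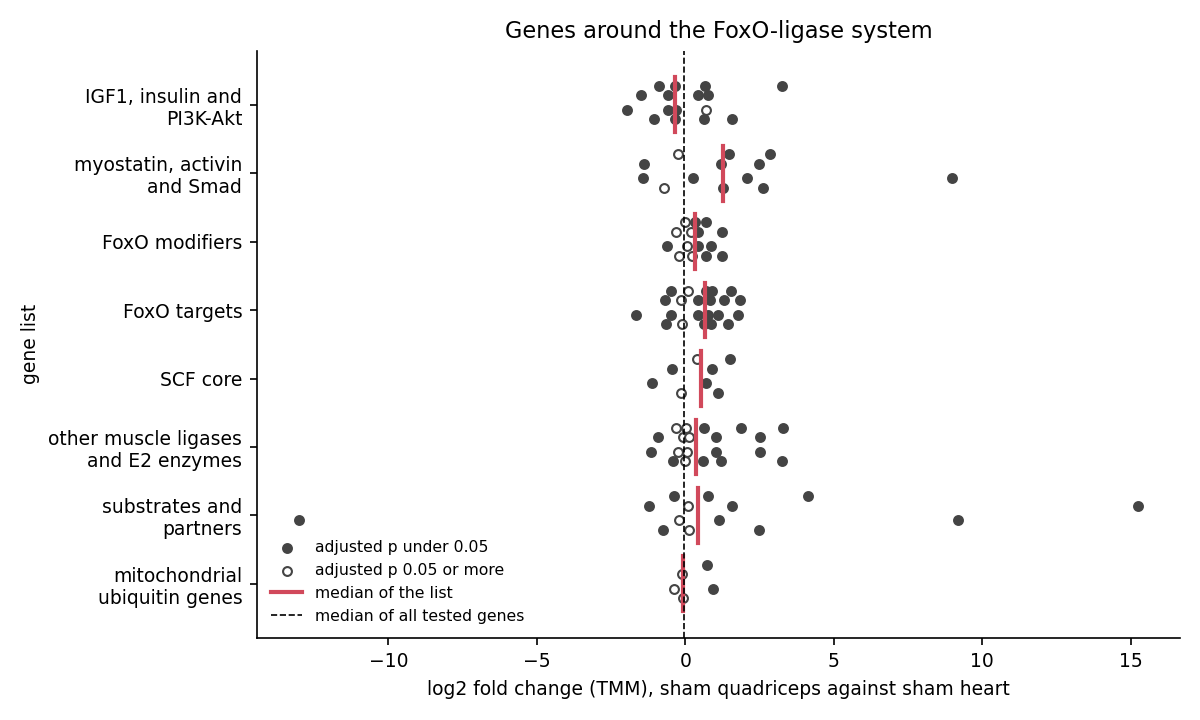
Log2 fold change with TMM, sham quadriceps against sham heart, of each gene in the 8 lists (filled, adjusted p under 0.05; open, not under 0.05), with the median of each list in red and the median of all tested genes (-0.05) as a dashed line. The myostatin list has the highest median (1.27) and the IGF1, insulin and PI3K-Akt list the lowest (-0.34), and the substrate list spans the widest range, in which the fitted value of Myod1 depends on the prior count.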

How the data were processed

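Counts per RefSeq transcript of 3 sham heart and 3 sham quadriceps libraries were analysed. From single-end reads, trimmed by Trim Galore! and mapped to mm10 by STAR, the authors made the deposited counts with Rsubread. The deposited RPKM values are counts scaled to transcript length and to the library total. Versions are not given in the sources used here. Columns of the authors' own edgeR, samr and other tests were not used, nor was the table of the aortic constriction comparison. The filter kept transcripts counted over 5 times in 2 or more libraries, and edgeR 4.0.16 (R 4.3.3) was run on them (quasi-likelihood test, TMM, Benjamini-Hochberg adjustment over 24280 transcripts; standard errors are the log2 fold change over the root of F), with no covariate. The transcript with the most counts stood for a gene. Levels are edgeR's RPKM with TMM-scaled library sizes, and shares and ratios use the deposited RPKM. Positions are from GENCODE vM21.

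The 10 genes and the lists were chosen with earlier results of these data known. Named in the text are the 10 genes and, per list, the 3 genes with the largest and the 3 with the smallest log2 fold change among those called, of which 1 is not reported here. Shares and ratios were compared with exact permutation tests in scipy 1.17.1. Alternatives were DESeq2 1.42.0, library totals, other count filters, 1 transcript per gene, limma 3.58.1 on log2(RPKM + 0.5) or log2(RPKM + 0.1), the replicate number as a block and leaving out each library. Replicate libraries of a tissue differed by more than sampling noise (chi-square per degree of freedom at least 7.40), so none was counted as a duplicate. The study's text calls its replicates biological, but which mouse gave each library is not given in the sources used here, and p-values measure the spread between these libraries.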

Additional observations from a re-analysis of the deposited data

How the results depend on the processing

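Foxo4, Fbxo32, Foxo6, Foxo3 and Mul1 kept their direction and their call under all 14 alternatives, with log2 fold changes of at least 1.10, 1.09 to 2.02, 0.33 to 1.42, -2.81 to -1.97 and -1.48 to -0.65. Trim63 (0.32 to 1.24) and Trim54 (0.14 to 1.04) kept their direction and lost the call with library totals and with limma on log2(RPKM + 0.5) and log2(RPKM + 0.1), the settings scaled by library totals. Fbxo30 ran from -0.21 to 0.0518 without single libraries and turned to 0.0518 without quadriceps library 2, with no call there. The difference in the Foxo6 share, 0.00661 percentage points, ran from -0.0963 to 0.0639 without single libraries.

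With library totals, and alike with limma on log2(RPKM + 0.5) and log2(RPKM + 0.1), the genes called higher and lower in quadriceps were 3 and 5 of the 10. For IGF1, insulin and PI3K-Akt genes 2 were then higher, for myostatin genes 5 lower, for FoxO modifiers 2 higher and 9 lower, for FoxO targets 4 and 10, for SCF genes 2 higher, for other muscle ligases 10 lower, for substrates 7 lower and for mitochondrial genes 0 and 3. Over all transcripts these settings called 3240 and 15203, 3201 and 15319, and 3218 and 15365, against 7828 and 8354 with TMM. With 1 transcript per gene, which tests fewer rows, the numbers were 4744 and 5059. Of the 10 genes, 4 were lower with at least 10 counts in every library and 4 with no filter (Foxo1 and Trim55 then passed), and 3 FoxO modifiers were lower with the first and 2 with the second, where 1 mitochondrial gene was lower too. For these filters the cause was not tested.

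Without single libraries, 1 to 3 FoxO modifiers were lower (2 without heart library 3, 3 without quadriceps library 2), 1 to 2 SCF genes (1 without quadriceps library 3) and 0 to 1 mitochondrial genes (1 without quadriceps library 1). Between heart and quadriceps libraries of the same replicate number, the correlation of deviations was r = 0.0105, -0.113 and -0.0321. With 3 libraries per tissue, this cannot tell whether such libraries came from the same mouse. With the replicate number as a block, 7541 transcripts were higher and 8175 lower, 5 and 2 of the 10 genes were called as without the block, and 1 mitochondrial gene was lower. Depth limits Foxo6 and Foxo3 most, with at most 84 counts per quadriceps library.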
